A study of Homo sapiens with 4 samples.

Results

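The 680 windows described here are 1 kb stretches of DNA in HUDEP-2 cells whose CpG methylation was at least 15 percentage points higher in cells treated with an EED inhibitor than in both the vehicle control and untreated cells. HUDEP-2 is an immortalised human erythroid precursor line. Whole-genome bisulfite sequencing reads unmethylated cytosine as T and methylated cytosine as C. The level of a window is the percentage of methylated reads among the reads of its CpGs. Non-overlapping windows of chromosomes 1 to 22 were eligible where at least 3 CpGs were listed in all 4 libraries and each library had at least 100 reads summed over those CpGs. Of 2024509 eligible windows, 680 met the rule, or 0.0336%. The levels under the EED inhibitor, with DMSO and in untreated cells were the measured values the windows were chosen by, so they are given as a description and no test was made between them. The level under the DNMT1 inhibitor was not used by the rule, and its comparison with DMSO or NonDiff shares their chosen levels.

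There were 4 libraries, 1 per group, and no spread between replicates. NonDiff cells were untreated and not differentiated. The other groups were taken through 4 days of a growth stage and 2 days of maturation, with 0.1% DMSO alone, with a DNMT1 inhibitor in it or with an EED inhibitor in it, given from the expansion stage onward. All groups were the same line, which makes adult haemoglobin, and compound names and doses were not given in the sources used here. Mean coverage per listed CpG lay between 27.2 reads in NonDiff and 29.7 under the EED inhibitor. Differentiation and treatment time are shared by DMSO and both inhibitor groups, whereas NonDiff differs from them in both.

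EED is the subunit of Polycomb repressive complex 2 that reads trimethylated lysine on histone H3 and stimulates the complex to add more of it. The complex keeps CpG-rich promoters of developmental genes silent, mostly where DNA is unmethylated, and the histone mark and DNA methylation tend to occupy different CpG-dense sites. DNMT1 copies CpG methylation onto newly made DNA, so cells that divide without it lose methylation, and long gene-poor domains of many cultured lines are partly methylated already.

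Sequence is shown for windows that overlap a promoter and have large margins, because they let the CpGs behind a window level be seen. HPCAL1, the third by margin, is not shown because no stretch of its window was free of UTRs. All are the plus strand of the hg38 reference, each within 1 window of the set and outside UTRs, with the CpGs listed in all 4 libraries in capitals. The CAMKK1 stretch is chr17:3893441-3893740, the MXRA7 stretch chr17:76710141-76710440, the FES stretch chr15:90885586-90885885 and the SF3B2 stretch chr11:66051616-66051865. The last stretch, chr17:70806001-70806300, opens the longest run of adjacent windows of the set. It was chosen after its values were seen.
CAMKK1: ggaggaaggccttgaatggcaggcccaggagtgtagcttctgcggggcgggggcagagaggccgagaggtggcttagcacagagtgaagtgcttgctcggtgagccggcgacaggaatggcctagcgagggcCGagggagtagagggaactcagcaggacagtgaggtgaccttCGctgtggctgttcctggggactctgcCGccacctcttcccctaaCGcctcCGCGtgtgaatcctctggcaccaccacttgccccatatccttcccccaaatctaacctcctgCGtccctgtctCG
MXRA7: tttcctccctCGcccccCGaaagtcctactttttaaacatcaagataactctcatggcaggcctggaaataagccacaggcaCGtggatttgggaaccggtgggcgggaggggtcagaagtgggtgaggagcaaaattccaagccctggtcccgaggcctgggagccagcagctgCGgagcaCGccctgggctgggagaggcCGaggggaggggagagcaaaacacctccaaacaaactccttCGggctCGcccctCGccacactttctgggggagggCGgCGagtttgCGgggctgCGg
FES: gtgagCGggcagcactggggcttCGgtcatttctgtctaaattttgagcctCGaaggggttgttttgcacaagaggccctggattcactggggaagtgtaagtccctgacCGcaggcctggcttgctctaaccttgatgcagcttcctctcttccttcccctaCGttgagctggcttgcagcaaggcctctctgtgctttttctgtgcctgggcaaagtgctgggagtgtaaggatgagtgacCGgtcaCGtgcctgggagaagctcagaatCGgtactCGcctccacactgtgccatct
SF3B2: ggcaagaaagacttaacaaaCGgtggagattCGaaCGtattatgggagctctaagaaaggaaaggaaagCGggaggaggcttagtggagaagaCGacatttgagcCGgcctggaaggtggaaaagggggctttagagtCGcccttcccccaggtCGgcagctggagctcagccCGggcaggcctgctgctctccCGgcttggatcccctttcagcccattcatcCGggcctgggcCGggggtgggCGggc
Gene-poor run: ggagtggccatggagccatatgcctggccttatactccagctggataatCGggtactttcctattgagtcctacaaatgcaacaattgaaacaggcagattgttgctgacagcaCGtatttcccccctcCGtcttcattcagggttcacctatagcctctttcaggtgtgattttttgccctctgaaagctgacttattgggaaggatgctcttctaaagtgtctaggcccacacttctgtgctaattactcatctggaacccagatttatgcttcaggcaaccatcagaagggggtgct

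The CAMKK1 window, chr17:3893001-3894000, overlaps a CpG island and exon 1 of the gene for a kinase that activates calmodulin-dependent kinases. Only 8 of its 78 reference CpGs were shared by the 4 libraries, all in the stretch shown. The part of the exon in the window is UTR, and the stretch lies outside UTRs. The window level thus describes CpGs outside the exon, and not the whole island. Its level was 32.6% in NonDiff (95% Wilson interval 25.1 to 41.0, 129 reads), 24.2% in DMSO (18.3 to 31.4, 161 reads), 7.94% under the DNMT1 inhibitor (4.37 to 14.0, 126 reads) and 57.9% under the EED inhibitor (49.4 to 65.9, 133 reads). Of its 8 shared CpGs, 7 were higher under the EED inhibitor than in both references. The CpG at 3893615 had 20%, 23.8%, 0% and 70.6% in that order, on 15 to 21 reads, whereas the first of the capitals, at 3893573, was at 0% in all 4. Such intervals cover counting error only, since reads of 1 fragment span several CpGs and PCR copies are not independent molecules.

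The FES window, chr15:90885001-90886000, lies over exons 2 and 3 of a tyrosine kinase gene known from myeloid cells, and its printed stretch begins at the first base of the following intron. Its midpoint is 996 bp from the transcript start. Its shared CpGs, the first at 90885154, lie past the 500 bp downstream of the start that count as promoter here. The window was deeper, with 334 to 407 reads per library. Its level was 41.6% in NonDiff (36.8 to 46.5), 38.02% in DMSO (33.0 to 43.3), 10.3% under the DNMT1 inhibitor (7.62 to 13.8) and 59.95% under the EED inhibitor (55.1 to 64.6). Of 20 shared CpGs, 17 were above both references. In the stretch shown, the CpG at 90885829 was at 30.8%, 41.7%, 14.3% and 85.0%, and its neighbour at 90885835 at 35.7%, 21.4%, 0% and 80.0%. The higher level was therefore spread over many CpGs of that window.

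The SF3B2 window, chr11:66051001-66052000, upstream of a splicing factor gene, differed in that respect. Its level was 12.2% in NonDiff, 13.0% in DMSO, 1.11% under the DNMT1 inhibitor and 31.1% under the EED inhibitor, on 323 to 409 reads. Only 11 of its 25 CpGs were above both references, and most of the others were at 0% in all 4 libraries. At 66051546 and 66051553, the EED inhibitor library had 23 and 22 reads against 13 and 14 in DMSO, with 78.3% and 95.5% methylated. With each CpG weighted alike, the margin over the nearer reference was 8.73 points instead of 18.09.

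The share of reads on each CpG thus entered the level of a window. Weighting each CpG alike, 218 of the 680 windows (32.1%) kept a margin of 15 points over both references, 501 kept 10 points, 46 had under 5 points and 10 had none. The median margin was 13.1 points by that weighting, against 16.3 points with reads pooled. The window with the fourth-largest pooled margin, in intron 1 of DNAJC6, had 25.5 points pooled and 3.98 with CpGs alike, and 1 of its 5 CpGs was above both references. In intron 13 of MICALL1, on at least 339 reads per library, 1 of 22 CpGs was above both, and the margin went from 16.3 to −1.16 points. The same change of weighting left 2085 of 5014 windows (41.6%) that were lower under the EED inhibitor than both references, and 169 of 769 (21.98%) that were higher in DMSO than both others, at 15 points.

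**Figure D1:**
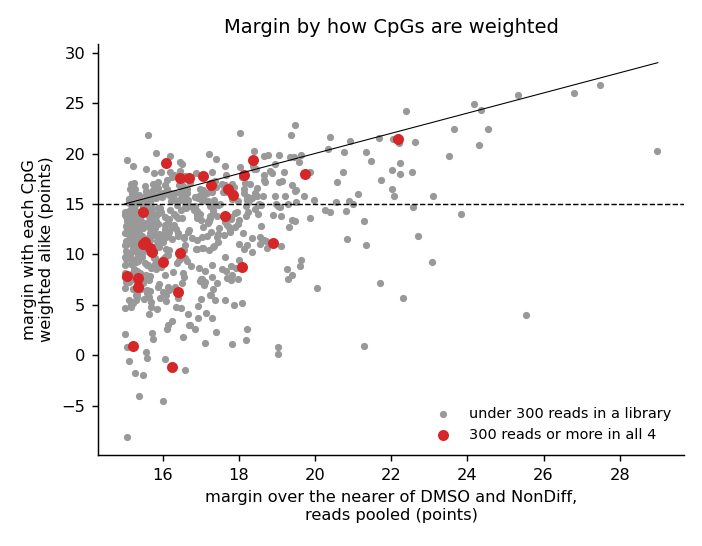
Each point is 1 of the 680 windows, with the margin of the EED inhibitor over the nearer of DMSO and NonDiff from pooled reads on the x axis and with each CpG weighted alike on the y axis, both in percentage points. Red points are the 27 windows with at least 300 reads in all 4 libraries, the dashed line marks 15 points and the solid line equal values. Most points lie under the dashed line.

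The count of 680 was close to what the same rule gave with DMSO in the place of the EED inhibitor. There were 769 windows (0.038%) higher in DMSO than in both NonDiff and the EED inhibitor library, and 1193 (0.0589%) higher in NonDiff than in both others. Windows lower under the EED inhibitor than both references were far more frequent, 5014 or 0.248%, and windows lower in DMSO (817, 0.0404%) or in NonDiff (193, 0.00953%) than both others lay on either side of the 680. Of the 680, 5 also counted as lower in DMSO than both others. The libraries of these counts are shared, so the counts are not independent.

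Most windows of the set were shallow. The median window had 140 reads in NonDiff, 149.5 in DMSO, 153 under the DNMT1 inhibitor and 159 under the EED inhibitor, against 240, 250, 257 and 268 over all eligible windows, and it held 5 shared CpGs against 8. In the shallowest band of depth, just above 100 reads in the shallowest library, 13 of 10000 eligible windows were in the set, and from 300 to 500 reads, 0.485. The rate for windows higher in DMSO went from 15.7 to 0.176 over the same range. At 300 reads or more in all 4 libraries, 27 windows met the rule, against 111 lower under the EED inhibitor and 8 higher in DMSO.

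**Figure D2:**
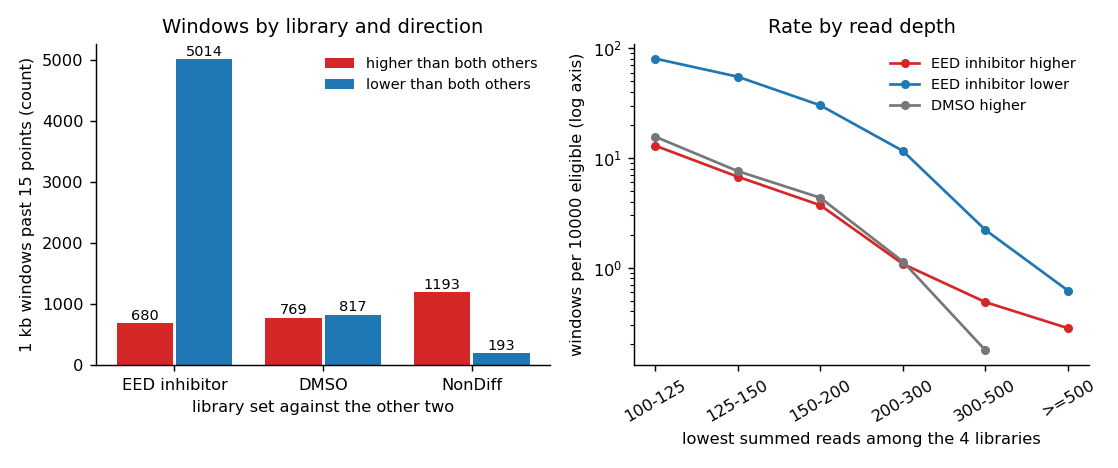
The left panel counts 1 kb windows at least 15 points above (red) or below (blue) both other libraries, for each of 3 libraries. The right panel gives the rate per 10000 eligible windows (log axis) by the lowest read sum among the 4 libraries: the red line for the EED inhibitor follows the grey line for DMSO up to 300 reads, and no window of 500 reads or more was higher in DMSO.

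Over the 680 windows the level was 40.8% in NonDiff (40.6 to 41.1), 40.1% in DMSO (39.8 to 40.3), 9.82% under the DNMT1 inhibitor (9.65 to 9.99) and 59.0% under the EED inhibitor (58.7 to 59.3). Over all eligible windows it was 62.9%, 61.5%, 17.3% and 60.5%. The rule favours windows with low references. The 769 windows chosen in the same way as higher in DMSO stood at 54.1% in DMSO, 36.7% in NonDiff and 34.6% under the EED inhibitor, so nothing is read from where these levels lie against all windows. Single windows ran from 1.77% to 74.5% in NonDiff, from 5.00% to 73.3% in DMSO and from 20.6% to 91.7% under the EED inhibitor. Both references lay between 20% and 60% in 535 windows (78.7%), as in 41.1% of all eligible windows. DMSO was within 5 points of NonDiff in 557 windows (81.9%), and the same share over all eligible windows was not computed. Under the EED inhibitor, 44 windows reached 80%, where the upper quartile of all eligible windows was 79.6%.

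**Figure D3:**
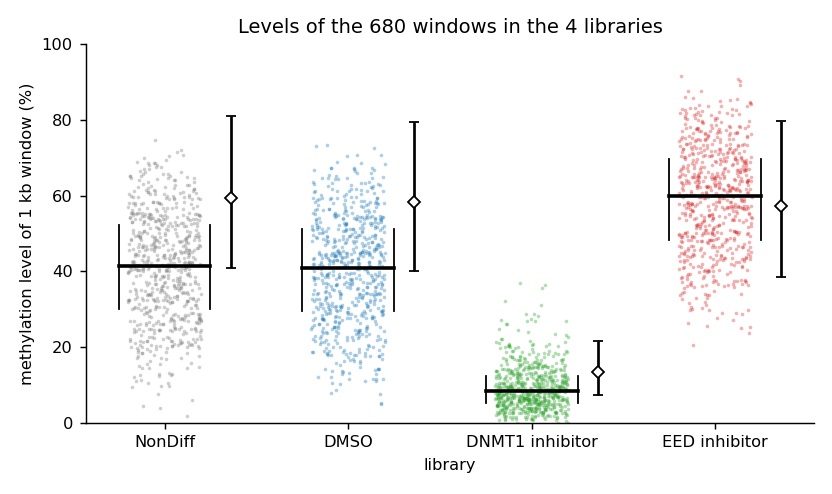
Each point is the methylation level (%) of 1 of the 680 windows in 1 library, with the median as a thick bar and the quartiles as side bars. Open diamonds and whiskers give the median and quartiles of all eligible windows. The windows of the set centre on 41.4%, 40.8%, 8.43% and 59.98% in NonDiff, DMSO, DNMT1 inhibitor and EED inhibitor.

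Margins crowded at the limit. The lesser of the differences from DMSO and NonDiff was between 15 and 16 points in 284 windows, at least 20 points in 51 and at least 25 points in 5. Just inside were windows in exon 10 of ELF2 (62.8% in DMSO, 77.8% under the EED inhibitor), in intron 1 of C1GALT1 (45.0% and 60.1%) and in intron 4 of DST (44.2% and 59.2%, with 34.9% in NonDiff). Just outside was chr7:140011001-140012000, with 59.8% in NonDiff, 59.2% in DMSO and 74.8% under the EED inhibitor, a margin of 14.999 points. From read counts alone the standard error of a difference from DMSO had a median of 5.31 points. It had a median of 12.3 points when reads were divided by the number of CpGs, to allow for reads that span several. The EED inhibitor's Wilson interval lay clear of both references' in 519 windows by read counts, and in 0 with reads divided by CpGs. The rule chose the windows by these same levels, so the 519 are not evidence of a difference. The same count over all eligible windows was not made. Over the CpGs of these windows, 3095 of 4408 (70.2%) were above both references, and in 120 windows (17.6%) each CpG was. The rule favours such shares, since these CpGs make up the chosen levels, and no share over all eligible windows was computed.

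The largest margin was 28.98 points, in an intergenic window at chr1:36758001-36759000, 275587 bp from the nearest protein-coding transcript start. Its level was 20.6% in NonDiff, 19.6% in DMSO, 2.53% under the DNMT1 inhibitor and 49.6% under the EED inhibitor. With CpGs weighted alike its margin was 20.3 points, and 2 of its 4 CpGs were above both references. Next came chr2:193147001-193148000 (22.5%, 21.8%, 4.96% and 50.0%) and chr15:87746001-87747000 (51.0%, 50.8%, 11.5% and 77.8%), which were also intergenic and kept 26.8 and 25.96 points with CpGs alike. Among the 12 windows with the largest margins, those at CAMKK1, DNAJC6, TCEA2 and RIT2 overlapped a protein-coding gene. RIT2, a neuronal small GTPase gene, had 23.6% in NonDiff, 23.7% in DMSO, 1.51% under the DNMT1 inhibitor and 47.2% under the EED inhibitor in a window of intron 1, on chromosome 18. The other 8 of the 12 were outside protein-coding genes, among them chr9:22136001-22137000, 127195 bp from the start of CDKN2B, with 48.3%, 45.8%, 8.91% and 72.6%. The windows chr12:63682001-63683000, chr5:14956001-14957000 and chr9:115525001-115526000 had each CpG above both references, and stood at 77.01%, 63.1% and 63.7% under the EED inhibitor against 52.2%, 30.6% and 37.0% in DMSO.

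By location, 24 of the 680 windows (3.53%, 2.38 to 5.20) overlapped a protein-coding promoter, taken as 1000 bp upstream to 500 bp downstream of a transcript start, against 1.85% of all eligible windows. Another 44 lay over exons (6.47% against 8.29%), 232 in introns (34.1% against 39.9%), 113 in lncRNA genes (16.6% against 14.5%) and 267 in none of these (39.3% against 35.4%). CpG islands of at least 500 bp held 27 windows (3.97%, 2.74 to 5.72, against 2.06%), and 16 windows were both island and promoter (2.35% against 0.98%). The median distance to a protein-coding transcript start was 97116.5 bp, against 72005 bp over all eligible windows. Among windows lower under the EED inhibitor, promoters took 0.62% and islands 0.50%. By a relaxed island definition the direction turned, with 7.06% of the set against 9.11% of eligible windows, and at 20 points 1 of 51 windows overlapped a promoter (1.961%). None of these shares was tested.

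At 300 reads or more in all 4 libraries, 8 of 27 windows overlapped a promoter (29.6%), against 3.76% of the 631489 eligible windows of that depth, and 12 overlapped a CpG island of 500 bp or more (44.4%, against 4.94%). This depth was chosen after the data were seen, and these shares were not computed for windows lower under the EED inhibitor or higher in DMSO. Among the 8 promoter windows, FES, SLC6A20 and TBX20 kept 15 points with CpGs weighted alike. SF3B2, CREBBP, ZFP69B, ATG14 and ALX1 had 6.28 to 10.6 points and also overlapped islands. The island windows at SH3D21 and KLHDC2 had 6.82 and 0.891 points, and the other island windows kept 15. Of the 27, 11 also kept 15 points with CpGs weighted alike, and these are described next. They were picked by that margin, and the other 16 were as deep.

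TBX20, a T-box factor of heart development, had its window in the promoter and first exon, at chr7:35254001-35255000. The level was 30.1% in NonDiff (27.2 to 33.3), 31.7% in DMSO (28.5 to 35.1), 12.8% under the DNMT1 inhibitor (10.8 to 15.1) and 48.4% under the EED inhibitor (44.9 to 51.9), on 767 to 940 reads. Under the EED inhibitor, 26 of 39 shared CpGs were above both references, out of 85 CpGs in the reference sequence. EMILIN2, which encodes an extracellular matrix glycoprotein, held an island window in exon 5, at chr18:2906001-2907000, with 14.5% in NonDiff (11.4 to 18.1), 13.3% in DMSO (10.5 to 16.7), 4.48% under the DNMT1 inhibitor (3.08 to 6.49) and 36.6% under the EED inhibitor (31.6 to 41.9). There 22 of 26 shared CpGs were above both, out of 111 CpGs in the reference sequence. The read sum under the EED inhibitor was 333 against 467 in DMSO. Over all eligible windows of that chromosome, the reads of the EED inhibitor library were 0.854 times those of DMSO and 0.983 times those of NonDiff.

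Intron 1 of IGF1, the gene of a secreted growth factor, had a window near its start (chr12:102479001-102480000) at 9.67% in NonDiff, 11.5% in DMSO, 2.94% under the DNMT1 inhibitor and 28.7% under the EED inhibitor. A window over the first exon of SLC6A20, an amino-acid transporter gene, stood at 27.1%, 24.5%, 13.6% and 44.8% in the same order, on 30 of its 95 reference CpGs. REM1, which encodes a small GTPase, had 48 CpGs in its window over exon 5, at 41.9%, 48.0%, 18.6% and 64.1%. These 3 windows and those of TBX20, EMILIN2 and FES had margins between 16.5 and 21.5 points with CpGs weighted alike, the measure they were picked by. The remaining windows of this kind were in intron 3 of PPP2R5C (45.6%, 51.3%, 12.3% and 68.3%), in exon 10 of TNFRSF1B, a receptor for tumour necrosis factor (59.3%, 54.5%, 8.87% and 75.8%), 1877 bp from the start of RASA3 (53.7%, 53.5%, 13.1% and 73.5%), in a lncRNA gene on chromosome 6 (35.7%, 33.5%, 6.92% and 53.6%) and at chr21:8390001-8391000.

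The chromosome 21 window had another pattern. It lies 2131083 bp from the nearest protein-coding start, on the short arm, and had 59.6% in NonDiff, 36.5% in DMSO, 31.2% under the DNMT1 inhibitor and 77.8% under the EED inhibitor. Of its 37 CpGs, 34 were above both references, and the EED inhibitor stood 41.3 points over DMSO and 18.1 over NonDiff. Short arms of this kind are rich in repeats, repeats were not masked, and 37 of the window's 143 reference CpGs were shared, so reads of other copies may be mixed there.

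The 24 promoter windows were of many kinds. MXRA7, the gene of a matrix remodelling-associated protein, stood at 50.4% in NonDiff, 51.6% in DMSO, 7.36% under the DNMT1 inhibitor and 71.1% under the EED inhibitor, and kept 19.6 points with CpGs alike. MACF1, which encodes a cytoskeletal linker, was low in both references, at 7.69% and 5.26%, and at 25.0% under the EED inhibitor, with each of its 6 CpGs above both. ALX1, a homeobox gene of craniofacial development, had 45 CpGs in its window upstream of the start, at 27.8%, 28.5%, 14.8% and 44.1% on at least 930 reads, and its margin was 10.6 points with CpGs alike. CREBBP, a histone acetyltransferase gene, stood at 52.0%, 53.1%, 23.4% and 69.6%, with 10.2 points left by that weighting. The neuronal genes SV2A, of a synaptic vesicle protein, and SCAMP5, of secretory carrier membranes, reached 38.5% and 60.1% under the EED inhibitor, from 20.1% and 43.4% in DMSO, and kept 15.8 and 3.02 points. The others were HPCAL1, PLEKHA5, ZFP69B, IFT74, ATG14, TCEA2, ZNF385A, MTHFD1L, LCN1, ARSI, ENSG00000257062, ENSG00000288637 and a promoter shared by COMMD7 and ENSG00000285382, with 15.02 to 19.3 points pooled and 2.28 to 19.4 points with CpGs alike. No promoter window other than that of CAMKK1 reached 20 points pooled. Some of these levels rest on few of the window's reference CpGs, such as 6 of 115 at MTHFD1L, 9 of 83 at HPCAL1 and 17 of 99 at MXRA7. Others rest on nearly all, such as 45 of 49 at ALX1 and 6 of 6 at MACF1.

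Of 18359 protein-coding genes with an eligible window, 296 (1.61%) held a window of the set in the promoter or body, and 17 held at least 2. BRINP3, a gene active in neurons, held 3 in 210 eligible windows. They lay in introns 2, 4 and 6, at 40.5%, 42.3% and 54.0% in DMSO and 58.3%, 57.8% and 75.3% under the EED inhibitor. SLIT2, the gene of an axon guidance ligand, held 3 in 288 eligible windows. Its introns 9, 11 and 21 stood at 56.2%, 65.4% and 43.9% in DMSO and at 79.7%, 85.0% and 62.0% under the EED inhibitor. In all 3 SLIT2 windows each CpG was above both references, and the margins with CpGs alike were 17.9, 15.6 and 17.6 points. The rule favours this, since these CpGs make up the chosen levels. Among the genes that held 2 were IKZF2, which encodes the lymphoid zinc finger factor Helios, and MLLT3, of the super elongation complex. Others with 2 included TCEA2, TSHR, NAV3 and LRP1B. Genes with 2 lay outside the naming rule, and those given here were picked after values were seen.

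Genes of lists related to the treatments and the cells were looked up. These lists are short, and their shares stand beside 1.61% of all genes with an eligible window. No window of the set was in the promoter or body of 20 genes of the DNA methylation machinery, 31 Polycomb genes or 49 listed imprinted genes with eligible windows. SNHG14, an imprinted lncRNA gene outside that list, held 1. Of 150 developmental regulators, TBX20 and IRX4 held 1 each. IRX4, a homeobox gene of the ventricle, had 9.77% in NonDiff, 10.3% in DMSO, 4.06% under the DNMT1 inhibitor and 25.4% under the EED inhibitor in an island window over a transcript other than its main one, and kept 15.5 points with CpGs alike. Of 52 erythroid and globin genes, NFIA and BACH1 held 1 each. NFIA, a nuclear factor active in erythroid cells, stood at 68.1%, 67.4%, 10.1% and 85.7% in intron 2, and BACH1, a haem-responsive repressor, at 38.6%, 36.9%, 10.5% and 54.0% outside its main transcript. These shares were 1.33% of the developmental and 3.85% of the erythroid genes. Per 10000 eligible windows the developmental list held 7.14 and the erythroid list 4.27, against 3.36 over all. The developmental list is thus below the background by genes and above it by windows, and each list rests on 2 windows, so nothing is read from either share. RHD, the Rh blood group gene, held a window in intron 8 with 53.7% in DMSO and 72.9% under the EED inhibitor on 536 to 652 reads, but its sequence is nearly that of RHCE, so reads of both genes may be mixed there.

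The wider surroundings were partly methylated. Levels of 100 kb bins in NonDiff, leaving the windows of the set out, were under 60% around 453 of the 680 windows (66.6%, 63.0 to 70.1), against 55.5% of all eligible windows. They were at least 75% around 92 (13.5% against 25.1%), and the median was 52.7% against 56.3%. The windows lower under the EED inhibitor lay in less methylated bins still, with a median of 45.6%, as did those higher in DMSO, with 45.5%. Windows lower in DMSO than both others had a median of 53.2%, close to that of the set.

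Just outside the windows the pooled difference was near 0. Flanks leave out CpGs in other windows of the same set, so they are not wholly free of the rule. CpGs 0 to 500 bp outside stood at 54.7% in NonDiff, 53.5% in DMSO, 13.6% under the DNMT1 inhibitor and 53.6% under the EED inhibitor. The difference from DMSO was 18.9 points inside and 0.145 points there. At 1 to 2 kb it was 0.0514 points (54.9% in both) and from NonDiff −1.60 points (56.5%). At 1 to 2 kb from the 27 windows of 300 reads or more it was larger, 1.36 points over DMSO (0.327 to 2.40). Over all 680 it stayed between −0.524 and 0.446 points out to 10 kb. Around windows lower under the EED inhibitor it was −1.70 points at 1 to 2 kb, and around those higher in DMSO −1.51 points. The pooled flanks of the set were thus level with DMSO. Those of the other 2 sets, which were chosen with the EED inhibitor below DMSO, were below it. Over all eligible windows the level was also lower under the EED inhibitor, 60.5% against 61.5% in DMSO. Flanks of windows lower in DMSO were not computed, and no flank difference was tested. Of 673 windows with at least 50 reads in the flanks at 1 to 2 kb, 334 (49.6%) had a flank higher under the EED inhibitor than in DMSO. In 215 (31.9%) the flank was higher than in both references, 1 reached 10 points over both and 0 reached 15. Because windows that met the rule were left out of flanks, the last 2 counts are held down, and nothing is read from them. The same shares around all eligible windows were not computed. In the median 100 kb bin, 22.8% of single windows outside the set were above both references, a measure of another kind. In DMSO the flank was above the window in 484 of 673, and by 20 points or more in 218, a step that a rule choosing low references brings with it. The windows higher in DMSO show it too, with NonDiff at 36.7% inside and 49.1% at 0 to 500 bp, and the EED inhibitor at 34.6% and 46.6%.

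**Figure D4:**
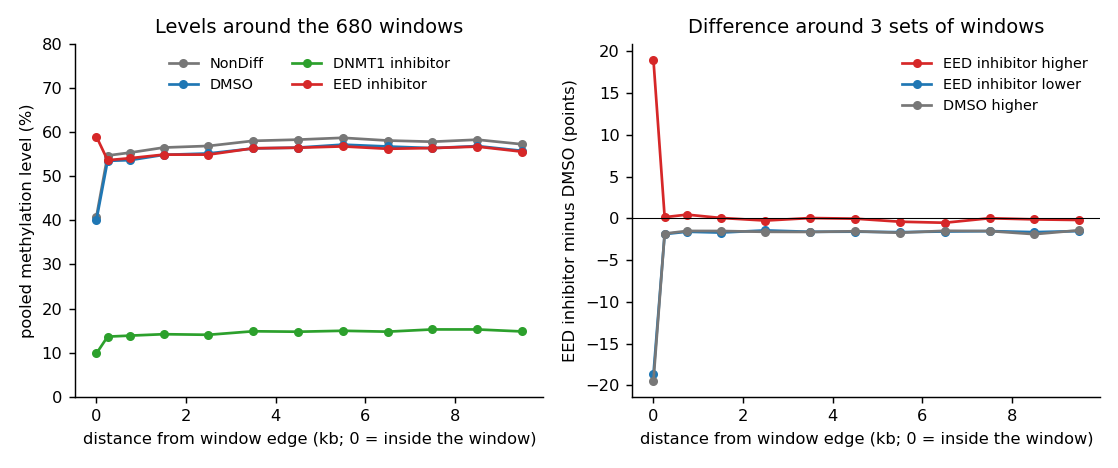
Pooled methylation level (%, left) in the 4 libraries and the difference of the EED inhibitor from DMSO (points, right) against distance from the window edge in kb, with 0 for the window itself. At 0 the references stand at 40.8% and 40.1% and the EED inhibitor at 59.0%, levels that the rule chose. Points away from 0 leave out CpGs in other windows of the same set, so they are not wholly free of the rule. The right panel also shows windows lower under the EED inhibitor and windows higher in DMSO, whose flanks lie below 0.

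Windows of the set were seldom adjacent. Alone in their stretch were 675, with 1 run of 2 and 1 run of 3 adjacent windows, and the median distance to the next one was 1156 kb. Another window of the set lay within 5 kb of 19 and within 100 kb of 106. How many would lie so near if scattered evenly was not computed. The 769 windows higher in DMSO had 1 adjacent pair and the 5014 lower under the EED inhibitor had 23. The 100 kb bin with most, chr17:70800001-70900000, held 10 of the 680 windows among its 76 eligible ones. No bin held more than 2 of the windows higher in DMSO, and none more than 7 of those lower under the EED inhibitor.

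That bin lies in a gene desert, 620 kb from KCNJ2, a potassium channel gene, and 1221 kb from SOX9, the gene of a cartilage and sex-determination factor whose distant enhancers are known to lie in this desert. Its run of 3 stood at 20.9%, 24.8% and 49.5% in NonDiff, at 24.6%, 24.3% and 40.6% in DMSO, at 7.96%, 9.62% and 18.1% under the DNMT1 inhibitor and at 42.4%, 41.6% and 65.4% under the EED inhibitor. In the sequence printed for the first of them, the CpG at 70806050 had 37 reads under the EED inhibitor and 16 or 17 elsewhere, at 78.4% against 50.0% in DMSO and 64.7% in NonDiff. Beyond the printed stretch in the same window, the CpG at 70806985 was at 0% under the EED inhibitor and in DMSO, and that at 70806918 at 16% against 10.8%. With CpGs alike the margins of the run were 7.42, 14.8 and 10.8 points. The window with 8 CpGs at chr17:70878001-70879000 had each CpG above both references, at 43.98%, 44.4%, 14.1% and 65.2%, and 20.2 points with CpGs alike. Over the 10 windows the EED inhibitor level ran from 36.7% to 81.5%, with a median of 62.4% against 40.3% in DMSO.

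The 66 eligible windows of the bin that did not meet the rule also stood higher. They were at 47.3% in NonDiff (46.4 to 48.1), 48.3% in DMSO (47.4 to 49.1), 17.2% under the DNMT1 inhibitor (16.6 to 17.9) and 53.9% under the EED inhibitor (53.0 to 54.7), a margin of 5.60 points, or 5.87 points with CpGs weighted alike. Of these 66, 52 (78.8%) were above both references, where the median bin had 22.8%. By that margin the bin was second of 26542 bins with at least 20 other windows, whose median was −2.05 points and 99th percentile 0.447. By 20 kb steps the difference from DMSO was 3.49 points at 70760001 to 70780000, reached 7.76 points at 70880001 to 70900000, was 2.96 points at 70920001 to 70940000 and −1.001 points in the step after it. The higher level thus extended beyond the bin on both sides. The bin was singled out for its count, and its remaining windows exclude by the rule those with the largest margins, so both values are descriptions.

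**Figure D5:**
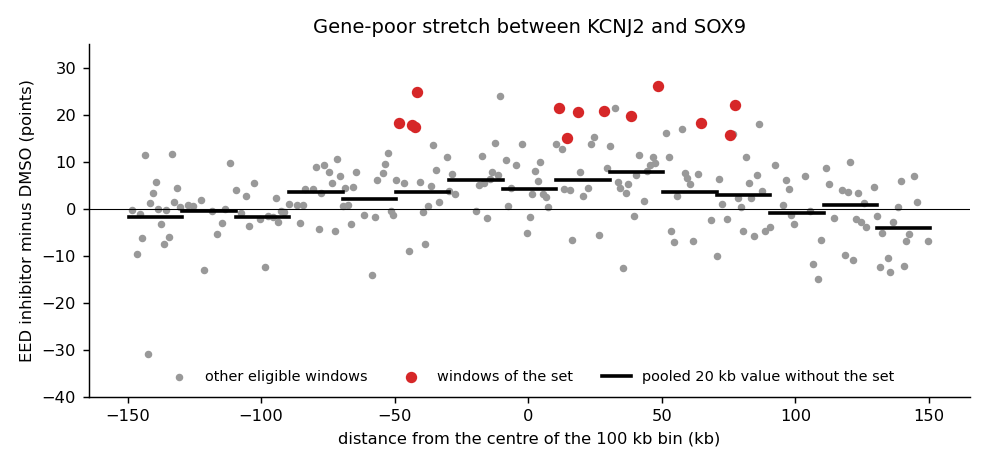
Difference of the EED inhibitor from DMSO (points) for each eligible 1 kb window against its distance in kb from the centre of the chromosome 17 bin, with windows of the set in red and others in grey. Black bars are pooled 20 kb values without the set, and they lie above 0 across the bin and for 2 steps on either side of it.

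Other bins held fewer windows of the set, and 21 bins held 2 each. Chr10:90500001-90600000 held 5 of its 49 eligible windows, all in the lncRNA gene LINC02653, at 17.8% to 43.6% in DMSO and 33.7% to 67.7% under the EED inhibitor, and its other 44 windows ranked 5 of all bins by margin. Chr15:87600001-87700000 held 3, and its other windows ranked 8. Bins on chromosome 4 over SLIT2, on chromosome 17 next to the first one and on chromosome 10 at 118.5 Mb also held 3 each, and ranked 460, 623 and 6310. Over all 634 bins that held a window of the set and had enough others, the other windows were above both references in 58 (9.15%), against 649 of 26542 (2.45%). The median margin of the 634 was −1.73 points, where a bin's margin is the level under the EED inhibitor minus the higher of both references.

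Under the DNMT1 inhibitor, which the rule did not use, these windows were low. The level was 24.5% of that in DMSO, against 28.1% over all eligible windows. In 679 windows it was below DMSO (99.9%, against 99.8% of all eligible windows) and in 680 below NonDiff (against 99.8%). Lower calls against DMSO, by Fisher's exact test (two-sided) on reads with Benjamini-Hochberg adjustment over all eligible windows, at an adjusted p under 0.01 and 25 points, were made in 463 of the 680 (68.1%), against 84% of eligible windows, and no eligible window was called higher. With the reads of each window divided by its CpGs, 284 of the 680 (41.8%) and 70.7% of all eligible windows were called lower. Against NonDiff, 468 (68.8%) were called lower, beside 84.6% of eligible windows. DMSO and NonDiff are low in these windows by choice, which leaves less room for a drop of 25 points, so the lower shares of calls are not a result about the set. The test compares reads of 2 libraries, not conditions. Calls were made in 41.8% of the set and 51.5% of all eligible windows at 20% to 40% in NonDiff, and in 94.1% and 96.5% at 40% to 60%. Within the same NonDiff class the levels were close from 20% up. At 20% to 40% in NonDiff the median under the DNMT1 inhibitor was 5.91% over 261 windows of the set and 5.59% over all, at 40% to 60% it was 10.7% and 10.4%, and at 60% to 80% it was 15.4% and 16.9%. Under 20% it was 3.20% over 47 windows of the set and 1.69% over all.

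The extremes under the DNMT1 inhibitor were few. It was 0% at chr11:73624001-73625000 and chr12:118584001-118585000, and 0.67% in intron 1 of PRKAG2, the gene of a subunit of the energy-sensing kinase AMPK, which stood at 21.97% in DMSO and 43.3% under the EED inhibitor. It was highest at chr15:87611001-87612000, with 36.8%, where DMSO had 72.5% and the EED inhibitor 90.6%. Next were chr2:193578001-193579000 (36.3%) and chr15:25042001-25043000 (35.6%), which lies in SNHG14 and stood at 67.2% in DMSO and 89.1% under the EED inhibitor. At chr16:33656001-33657000, on the centromere side of the short arm, the level was 61.2% in NonDiff, 30.2% in DMSO, 32.1% under the DNMT1 inhibitor and 76.8% under the EED inhibitor, the pattern also seen in the chromosome 21 window. In those 2 windows DMSO and the DNMT1 inhibitor had overlapping intervals while NonDiff stood far above DMSO. The chromosome 16 window shared 6 of its 21 reference CpGs, and mixing with other copies was not tested there either.

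Chromosomes differed in rate. Chromosome 17 had 5.06 windows of the set per 10000 eligible and chromosome 1 had 4.73. Without the bin of 10 windows and the bin after it, which together held 13 of its 32, chromosome 17 had 3.01. At the other end, chromosome 19 had 0.385, with 2 windows, and chromosome 8 had 0.743, with 9. The last 2 were also the deepest, with median read sums of 566 and 401 in the EED inhibitor library against 322 and 256. On chromosome 18 and on chromosome 10 beyond 100 Mb the EED inhibitor library had 0.854 and 1.29 times the reads of DMSO over eligible windows, against 1.07 elsewhere. These segments held 39 windows of the set (5.74%, 4.22 to 7.74), against 4.39% of eligible windows. On chromosome 18 alone, 24 windows stood at 33.1% in NonDiff, 32.4% in DMSO and 52.1% under the EED inhibitor, and their reads were 0.866 times those of DMSO. The part of read depth in these rates was not tested.

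The windows were poor in CpGs, with a median of 6 in the reference sequence against 9 over all eligible windows, and 53.4% held 3 to 5 shared CpGs against 21.0%. Median GC content was 39.5% against 41.3%. A GATA motif (AGATAA, either strand) was found in 399 windows (58.7%, 54.9 to 62.3, against 50.9% of all eligible windows), an E-box (CAGNTG) in 598 (87.9% against 89.5%), a BCL11A motif (TGACCA) in 236 (34.7% against 38.1%), an AP-1 motif (TGACTCA) in 14.9% (against 14.9%) and the CTCF core motif in 5 (0.735% against 0.923%). The GATA share was 59.7% in windows lower under the EED inhibitor, which were also AT-rich, with a median GC content of 37.8%. A match describes letters in the window and not a bound site.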

How the data were processed

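Whole-genome bisulfite libraries were made from 4 HUDEP-2 samples with the Accel-NGS Methyl-Seq kit, per the labels' protocols. The submitters' processing notes name Trim Galore 0.6.7, cutadapt 4.1, Bismark, Bowtie2 2.1.0, methylKit and hg38, without settings. Removal of duplicates is not given in the sources used here, and the conversion rate was not measured here. The authors deposited, for each CpG of at least 10 reads with both strands merged, the coverage as a count of reads. They also deposited, in percent of that coverage, the reads with C and those with T, per the file headers. Methylated reads were recovered by rounding percent times coverage, exact up to 1000 reads, which 1790 to 2086 CpGs per library exceeded.

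From these, the CpGs listed in all 4 libraries were summed in 1000 bp windows with Python 3.11.15, numpy 2.4.6, pandas 2.3.3 and scipy 1.17.1. Genes are those of GENCODE 44, and CpG islands were computed from hg38 (500 bp, GC at least 0.55, observed over expected at least 0.65). The exact test was checked against that of scipy on a sample of the windows. The calls and the rule were checked on simulated reads. Windows were named by rule: the 12 largest margins, promoter windows, runs, genes with 3 windows, listed genes, the extremes with the DNMT1 inhibitor and the 5 windows on either side of the limit. Some windows so named are given only within counts, and 1 is not reported here. Deep windows, the chromosome 17 and RHD regions, the genes named for 2 windows and the weighting examples at MICALL1 and SCAMP5 were chosen after values were seen. Members, lists and rules were chosen with earlier results of these data known. No read-level file was used, and repeats were not masked.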

Additional observations from a re-analysis of the deposited data

How the results depend on the processing

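With 1 library per group no test between conditions was possible, and no paired analysis was possible because each group held 1 library. The count of 680 windows was 7498 at 10 points, 51 at 20 points and 5 at 25 points. It was 86 with a minimum of 200 summed reads, 27 with a minimum of 300 (added after the data were seen) and 354 with unweighted means over CpGs across all eligible windows. It was 491 to 717 with 5 shared CpGs, 20 reads per CpG, shifted windows, without very deep CpGs and without chromosome 18 and the end of chromosome 10. Calls lower under the DNMT1 inhibitor, 463, were 284 with reads divided by CpGs and 59 of 86 windows at 200 reads. Its pooled level of 9.82% was 8.55% at 20 points, 11.6% at 200 reads and 8.43% as a median. The flank difference of 0.0514 points was −1.60 from NonDiff, −0.246 at 20 reads per CpG and 1.36 (0.327 to 2.40) at 300 reads. The share in low-methylated bins, 66.6%, was 43.7% for bins under 50%, against 37.5% of all eligible windows. The promoter share of 3.53% was 1.961% at 20 points and 29.6% at 300 reads. The island share of 3.97% was 7.06% with relaxed islands, against 9.11% of all eligible windows, and 44.4% at 300 reads. The share on chromosome 18 and the end of chromosome 10, 5.74%, was 11.8% at 20 points and 8.14% at 200 reads. The cause of these shifts was not tested. The rate on chromosome 17, 5.06 per 10000, was 3.01 without the bin of 10 windows and the next. The other 20 alternatives moved their values by less than the counting interval or 1.5 times.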

Other observations

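Ranking 100 kb bins by how far their windows outside the set stood above both references led to the bins below, besides those on chromosomes 17, 10 and 15. The bins ranked 1 and 3 of 26542 were neighbours over CDK6, a cell-cycle kinase gene that keeps blood progenitors cycling. In the first, at chr7:92700001-92800000, 60 of 71 windows outside the set were above both references, at 72.3% in NonDiff, 73.9% in DMSO, 19.9% under the DNMT1 inhibitor and 79.8% under the EED inhibitor, a margin of 5.90 points. In the other, at chr7:92600001-92700000, 61 of 84 windows were, at 76.7%, 76.2%, 19.4% and 80.5%, and none of its windows reached 15 points. CDK6 itself held 1 window of the set, in intron 2, at 56.9% in DMSO and 74.6% under the EED inhibitor.

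The fourth bin lay over PTPRJ, a receptor phosphatase gene of blood cells, where 72 of 98 windows were above both references, and the seventh over MLLT3, which also held 2 windows of the set. The sixth, over parts of the clock gene BMAL1 and of BTBD10, had 56 of 89 windows above both and none in the set. These bins were picked for their rank after the data were seen, on 1 library per group, so the values are descriptions without a test.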
